A study of Mus musculus with 6 samples.

Results

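Glucocorticoids are steroid hormones that enter cells and bind the glucocorticoid receptor, which then moves to the nucleus and switches target genes on or off. The genes of this system were followed in eWAT, the epididymal fat depot of male mice, in a mouse model of cancer cachexia, the wasting of fat and muscle that accompanies a tumor. They were taken by gene symbol from the deposited table, which held all 10 of them among 54532 genes, and all 10 were among the 16003 genes with enough counts to be tested. The list holds the receptor gene Nr3c1, the enzyme gene Hsd11b1 that makes active hormone inside fat cells, and 8 genes known to be induced by the hormone, namely Fkbp5, Tsc22d3, Per1, Zbtb16, Sgk1, Klf9, Klf15 and Ddit4. The rule uses gene symbols alone, but the members were chosen with earlier results of these data known.

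The study sequenced eWAT RNA from 3 cachectic mice and 3 control mice. All were young adult C57BL/6 males, for which no engineered allele is named. Per the methods of the study, cachectic mice carried a tumor grown under the skin from LLC cells, a mouse Lewis lung carcinoma line, and were defined as cachectic by their loss of body weight, so tumor and weight loss cannot be told apart. Neither the time of day of harvest nor a pair-fed group is given in the sources used here, and mice are numbered 1 to 3 in each group as in their titles. The total count per sample lay between 14928766 and 18855546, and every cachectic sample was shallower than every control sample. Counts were scaled to CPM, the count of a gene as a share of the TMM-normalized library size, with factors between 0.937 and 1.07. Differences were tested with the quasi-likelihood test of edgeR over all 16003 genes with Benjamini-Hochberg adjustment, and a gene was called at an adjusted p-value below 0.05. The value after ± is the standard error (SE) for a log2 fold change and the SD for a mean. In a principal component analysis the first component (57.6% of the variance) separated the groups, and the second (16.3%) set control 1 apart from the other mice. Without control 1 the same number of members, 3, was called.

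In fat, glucocorticoids are known both to drive the formation of fat cells and, during fasting or illness, to favor the release of stored lipid and lower the uptake of glucose. Fkbp5, Tsc22d3 and Per1 are widely used as readouts of receptor activity because the receptor binds near them directly. Most of these genes also answer to other signals, so none of them reads hormone alone. No hormone level was measured in these samples.

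Sgk1, Ddit4 and Per1, 3 of the 10 genes, were called higher in cachexia, 0 were called lower, and 7 did not pass. Over all tested genes 9% were called higher, 8.63% lower and 17.6% in either direction, a total of 2821 genes. Without control 3 that total was 828 and without control 2 it was 1312, and Sgk1, Ddit4 and Per1 were the 3 members called in both cases. At an unadjusted p-value under 0.05, 7 members passed, all of them higher. Over all tested genes 34.4% passed, counting either direction. DESeq2 called 5 members higher and 0 lower, beside 1955 genes higher and 1929 lower of all 16003. The fitted log2 fold change was positive in 9 members and negative in 1, the receptor itself. The median log2 fold change of the 10 members was 0.81, against -0.0031 over all tested genes. In 6 members every cachectic mouse lay above every control mouse, and in 0 members the reverse held. Groups that did not overlap were found in 20.4% of all tested genes in the higher direction and in 20.1% in the lower direction. A two-sided exact permutation test on log2 CPM gave p = 0.1 for each of these 6 members, the smallest value that 3 mice against 3 allow.

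**Figure D1:**
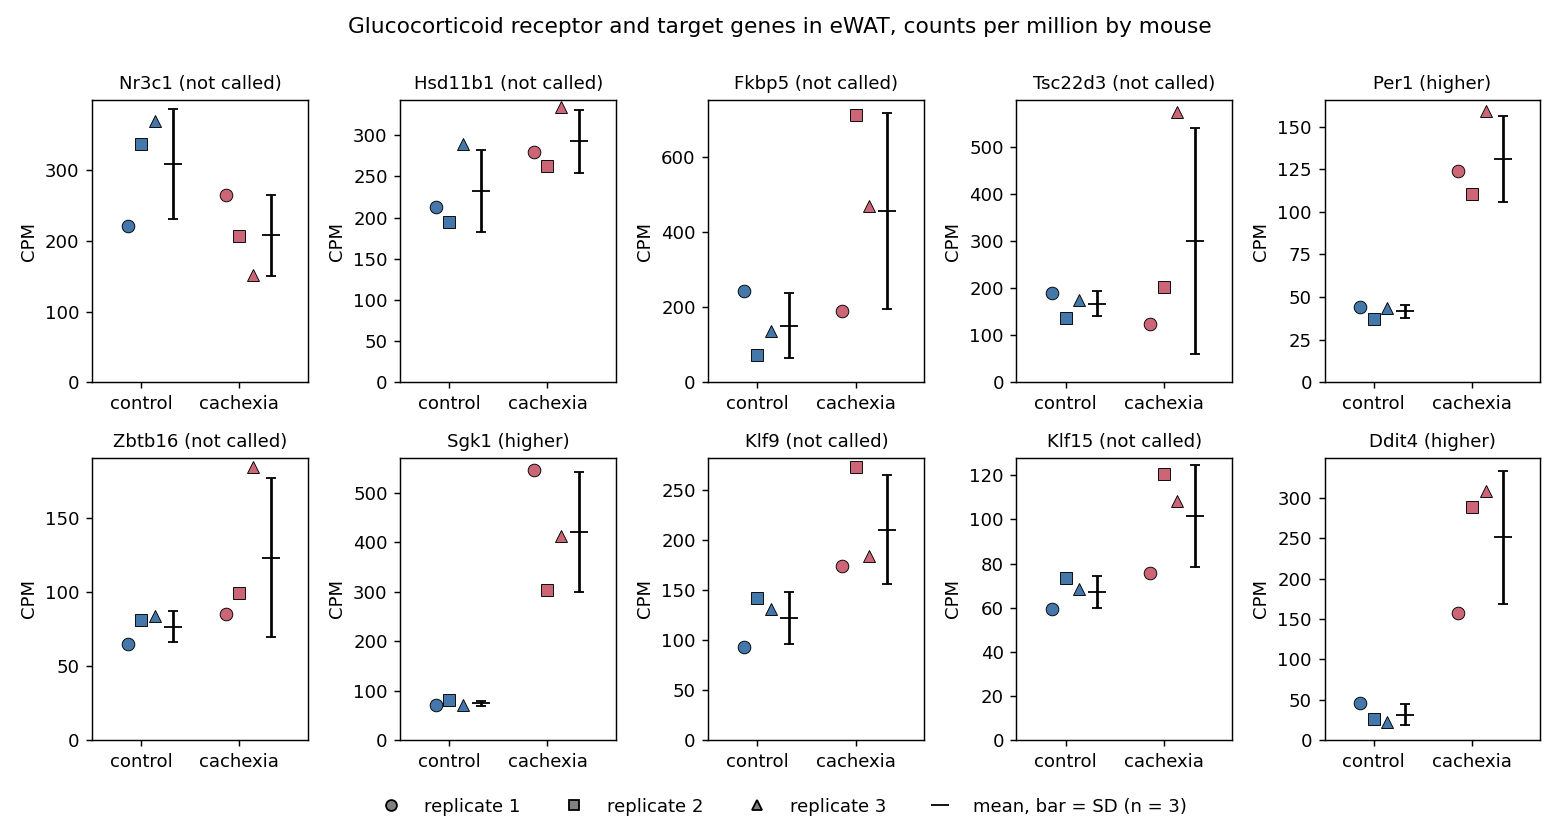
CPM of each of the 10 genes in every mouse, with replicates 1, 2 and 3 as circles, squares and triangles, control mice in blue and cachectic mice in red. The dash and bar beside each group are the mean and SD of 3 mice. Sgk1, Per1 and Ddit4 show 2 separate groups of points, while Fkbp5, Tsc22d3, Nr3c1 and Hsd11b1 overlap between groups.

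Nr3c1 encodes the glucocorticoid receptor, a nuclear receptor that is present in nearly every cell of the fat pad. Its expression was 222, 337 and 370.1 CPM in controls 1, 2 and 3, and 265, 207 and 152 CPM in cachectic mice 1, 2 and 3. Cachectic mice 2 and 3 lay below all controls, but cachectic mouse 1 lay above control 1. The mean was 309.6 ± 77.9 CPM in controls and 208 ± 57.0 CPM in cachectic mice (SD, n = 3 each). The log2 fold change of -0.57 ± 0.26 (SE) did not pass (edgeR adjusted p = 0.166). The value stayed negative when any 1 mouse was left out, between -0.79 and -0.38. Because this is whole tissue, fewer cells that carry a transcript and less of it per cell cannot be told apart, here and for every gene below.

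Hsd11b1 encodes 11-beta-hydroxysteroid dehydrogenase 1, which regenerates active corticosterone from its inert form within fat cells. Its gene lies on chromosome 1 from 193221634 to 193264075 (build GRCm38, as all positions given here). It stood at 213, 195 and 289 CPM in controls 1, 2 and 3, and at 279.9, 263 and 335 CPM in cachectic mice 1, 2 and 3. The groups overlapped, because control 3 exceeded cachectic mice 1 and 2. The log2 fold change was 0.33 ± 0.19 (SE) with edgeR adjusted p = 0.266. Lamb3 and 2 other genes overlap it, with no more than 148 counts in any sample beside at least 3398 for Hsd11b1. H6pd, which supplies the cofactor of this enzyme in the endoplasmic reticulum, was measured at 351 to 488 CPM in controls and 557 to 846 CPM in cachectic mice. These ranges did not overlap, but the log2 fold change of 0.63 ± 0.22 (SE) missed the threshold at an adjusted p = 0.0871 from edgeR's test. Hsd11b2, which inactivates the hormone in kidney and other tissues, was near the detection limit, at 1.15 CPM or less in every mouse.

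Fkbp5 encodes FKBP51, a co-chaperone that holds the receptor in a low-affinity state and is itself induced by the receptor, which closes a negative feedback loop. The gene lies on chromosome 17 from 28399094 to 28517527. Its expression was 243, 72.6 and 136 CPM in controls 1, 2 and 3, and 191, 711 and 468 CPM in cachectic mice 1, 2 and 3. Cachectic mice 2 and 3 exceeded all controls, while cachectic mouse 1 lay between controls 3 and 1. The means were 3.03-fold apart on the fitted scale, with 150.5 ± 86.2 CPM in controls and 457 ± 260.3 CPM in cachectic mice (SD, n = 3 each), and the SD was 57.3% of the mean in controls and 57.0% in cachectic mice. The log2 fold change of 1.60 ± 0.55 (SE) gave an adjusted p = 0.0805 from edgeR's test and did not pass. Without cachectic mouse 1 it was 1.97, with an adjusted p = 0.0443 from the same test. Without control 1 it was 2.13 with an adjusted p = 0.0502. It was smaller without any of the other mice: 1.27 without control 2 and 1.53 without control 3. Without cachectic mice 2 and 3 in turn it was 1.13 and 1.59. In these fits edgeR's adjusted p lay between 0.147 and 0.208. The related co-chaperone gene Fkbp4, whose product favors hormone binding, was at 82.3 to 98.1 CPM in controls and 80.6 to 91.5 CPM in cachectic mice, a log2 fold change of -0.07 ± 0.12 (SE).

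Tsc22d3 encodes GILZ, a small leucine zipper protein that carries part of the anti-inflammatory action of glucocorticoids. The gene lies on the X chromosome from 140539528 to 140600659. Its levels were 189, 138 and 176 CPM in controls 1, 2 and 3, and 124, 203 and 573 CPM in cachectic mice 1, 2 and 3. The 3 cachectic mice spanned the whole range, from below every control to far above them. The log2 fold change was 0.84 ± 0.50 (SE) with edgeR adjusted p = 0.275, and it rested on cachectic mouse 3, since it was -0.032 (edgeR adjusted p = 0.946) without that mouse. Among the cachectic mice the SD was 80.0% of the mean, against 15.9% among controls. The gene has 3 start sites in the promoter table of RefSeq (build GRCm38.p6), which counts per gene cannot separate.

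Per1 encodes a component of the circadian clock that is also rapidly induced by glucocorticoids. The gene lies on chromosome 11 from 69095217 to 69109960. It had 44.1, 37.1 and 43.7 CPM in controls 1, 2 and 3, and 124, 110.4 and 159 CPM in cachectic mice 1, 2 and 3. All 3 cachectic mice lay well above all controls, and the spread within each group was small, with an SD of 9.38% of the mean in controls and 19.3% in cachectic mice. Per1 rose 3.15-fold, a log2 fold change of 1.66 ± 0.17 (SE) with edgeR adjusted p = 0.00192. The call held in each of the 17 other settings tried, with log2 fold changes between 1.496 and 1.77.

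Per1 also belongs to the clock, so the other clock genes are given beside it. Of 18 clock genes tested, 3 were called higher, among them Nr1d2 and Nr1d1, and 3 lower (Bhlhe40, Bhlhe41 and Arntl). Their median log2 fold change was -0.24, and over all tested genes 9% were called higher and 8.63% lower. The partner gene Per2 stood at 25.4, 30.6 and 26.6 CPM in controls 1, 2 and 3 and at 24.4, 29.4 and 30.8 CPM in cachectic mice 1, 2 and 3, a log2 fold change of 0.04 ± 0.15 (SE) with edgeR adjusted p = 0.890. Per3 was at 35.4 to 44.2 CPM in controls and 14.2 to 32.2 CPM in cachectic mice, with a log2 fold change of -0.67 that did not pass (adjusted p = 0.142 from the same test). The clock repressor gene Nr1d1 was at 26.9 to 47.7 CPM in controls, at 217 and 200.2 CPM in cachectic mice 1 and 2, and at 40.9 CPM in cachectic mouse 3, inside the control range. Arntl, the positive arm of the clock, fell from 40.3 to 53.9 CPM in controls to 23.2 to 33.9 CPM in cachectic mice. The part of the time of harvest in the Per1 result was not tested.

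Zbtb16 encodes PLZF, a zinc finger repressor strongly induced by glucocorticoids in several tissues. The gene lies on chromosome 9 from 48654297 to 48836222. It stood at 64.8, 81.3 and 84.1 CPM in controls 1, 2 and 3, and at 85.4, 99.4 and 185 CPM in cachectic mice 1, 2 and 3. The groups did not overlap, but cachectic mouse 1 exceeded control 3 only narrowly. The log2 fold change of 0.68 ± 0.29 (SE) did not pass, with an adjusted p = 0.135 from edgeR's test. It was 0.27 without cachectic mouse 3.

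Klf9 and Klf15 encode Kruppel-like factors, zinc finger proteins that relay the hormone signal to metabolic genes. KLF9 is a direct early target in many cell types, and KLF15 is known for control of amino acid and lipid use in muscle, liver and fat. Klf9, on chromosome 19 from 23141226 to 23166911, had 92.9, 142 and 131 CPM in controls 1, 2 and 3 and 174, 273 and 184 CPM in cachectic mice 1, 2 and 3. Every cachectic mouse exceeded every control, and the log2 fold change was 0.79 ± 0.23 (SE). Klf9 lay at the edge of the threshold, with an adjusted p = 0.0521 from edgeR's test, and it was called in 7 of the 17 other settings. None of these 7 was a fit with a mouse left out, where edgeR's adjusted p lay between 0.064 and 0.134. Klf15, on chromosome 6 from 90462576 to 90475238, had 59.4, 73.5 and 68.4 CPM in controls 1, 2 and 3 and 75.8, 120.6 and 108 CPM in cachectic mice 1, 2 and 3. The groups were separated by little, since cachectic mouse 1 stood just above control 2. The log2 fold change of Klf15 was 0.60 ± 0.19 (SE) with edgeR adjusted p = 0.0652, and without cachectic mouse 1 it was 0.77 with an adjusted p = 0.0266. With any other mouse left out Klf15 did not pass, with edgeR's adjusted p between 0.119 and 0.172. DESeq2 called both genes, with adjusted p-values of 0.0101 and 0.0306.

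Sgk1 encodes serum- and glucocorticoid-regulated kinase 1, a relative of AKT that phosphorylates ion channels and FoxO factors. The gene lies on chromosome 10 from 21882184 to 21999903. Its expression was 71.8, 80.4 and 70.6 CPM in controls 1, 2 and 3, and 547, 304 and 414 CPM in cachectic mice 1, 2 and 3. Even the lowest cachectic mouse stood far above the highest control. Sgk1 rose 5.68-fold, from a mean of 74.3 ± 5.32 to one of 422 ± 121.7 CPM (SD, n = 3 each), a log2 fold change of 2.51 ± 0.23 (SE) with edgeR adjusted p = 0.0014. By its p-value it ranked 59 among the 16003 genes tested. The call held in each of the 17 other settings, with log2 fold changes between 2.27 and 2.70. Unlike most members, Sgk1 was highest in cachectic mouse 1.

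The receptor binds DNA as a dimer at the glucocorticoid response element, a palindrome of AGAACA and TGTTCT, which face each other across 3 bases. The RefSeq promoter table holds 250 bases before and 50 bases after each start site, in 16 windows for 8 of the 10 members (not Nr3c1 and Zbtb16). The exact palindrome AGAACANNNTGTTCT was searched, which reads the same on both strands. It was found in 3 of 32851 windows (0.00913%), and 1 of these belonged to Sgk1. The hexamer AGAACA, one arm of the palindrome, searched on both strands, was in 19.0% of all windows and in 4 of the 16 member windows, of Sgk1 and Tsc22d3. The E-box CACGTG, to which clock factors bind, was in 7.15% of all windows and in 4 member windows, of Klf15, Sgk1, Per1 and Fkbp5. The cyclic AMP response element TGACGTCA, also searched on both strands, was in 1.79% of all windows and in 0 member windows. Some members, Sgk1 above all, have several windows, so these shares are descriptions, and a match is not a measured binding site.

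The stretch of Sgk1 that carries the palindrome is shown because Sgk1 is the member with the smallest p-value. It reads on the + strand at chr10:21993640-21993755 (GRCm38.p6), bases -250 to -135 relative to the start site at position 21993890, within introns of longer Sgk1 transcripts in GENCODE M21 and in no exon. Capitals mark the palindrome, which begins at base -189, and an E-box that overlaps a further hexamer at the left end. The stretches of Tsc22d3 and Per1 are shown for comparison as other direct targets. In Tsc22d3 (- strand, chrX:140600662-140600747, outside the gene model, bases -225 to -140 from a start site) capitals mark a lone hexamer. In Per1 (+ strand, chr11:69098743-69098828, intron of a longer transcript, bases -206 to -121 from a start site) they mark an E-box.
Sgk1: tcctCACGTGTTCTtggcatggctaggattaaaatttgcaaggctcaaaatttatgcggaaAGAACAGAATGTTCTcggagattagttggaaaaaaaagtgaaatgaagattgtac
Tsc22d3: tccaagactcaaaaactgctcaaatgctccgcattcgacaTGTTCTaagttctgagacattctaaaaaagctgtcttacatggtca
Per1: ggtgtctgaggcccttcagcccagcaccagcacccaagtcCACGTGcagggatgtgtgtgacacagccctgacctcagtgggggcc
Of these members, Sgk1 and Per1 were called higher and Tsc22d3 was not. Ddit4, also called higher, had no match to any of the motifs in its window. Fkbp5 and Klf15, which carry an E-box as Per1 does, were not called. These windows say nothing of sites farther away.

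Ddit4 encodes REDD1, an inhibitor of mTORC1 signaling that is induced by glucocorticoids, low oxygen, energy stress and the integrated stress response. The gene lies on chromosome 10 from 59949669 to 59951834. It had 46.2, 26.3 and 22.6 CPM in controls 1, 2 and 3, and 157, 289 and 309 CPM in cachectic mice 1, 2 and 3. The groups were far apart, and the lowest cachectic mouse was again replicate 1. Ddit4 rose 7.93-fold, which is 2.99 ± 0.36 (SE) on the log2 scale, at an edgeR adjusted p = 0.00306. It had the largest fold change of the 10 members, and 98.5% of all tested genes had a smaller absolute log2 fold change. The call held in each of the 17 other settings. Genes of the integrated stress response, another known input to Ddit4, did not move one way. Of 10 tested, 4 were called higher (Chac1, Atf3, Sesn2 and Trib3) and 2 lower (Ddit3 and Atf5), beside 9% and 8.63% of all tested genes. Chac1 went from a mean of 3.38 ± 1.27 to one of 31.3 ± 6.38 CPM (SD, n = 3 each), while Atf4 itself stood at 125 to 188 CPM in controls and 138 to 235 CPM in cachectic mice, a log2 fold change of 0.22 ± 0.25 (SE). The part of this response in the Ddit4 result was not tested.

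**Figure D2:**
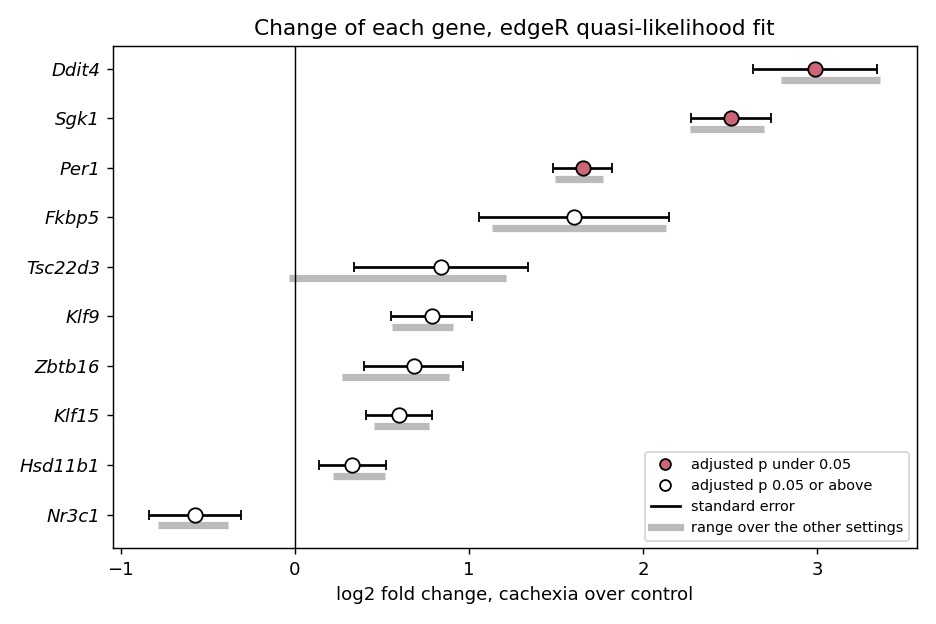
Log2 fold change of cachectic over control mice for each gene (points), with its standard error (black bars) from edgeR's quasi-likelihood fit, and the range of the value over 17 other settings (grey bars). Filled points mark an adjusted p-value under 0.05. Only the grey bar of Tsc22d3 crosses 0, and Nr3c1 is the gene on the negative side.

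Levels can be compared between genes only per gene length, for which the deposited FPKM values were used. In control mice Hsd11b1 was the highest of the 10, with 54.0 ± 11.7 (SD, n = 3) FPKM, followed by Nr3c1, Tsc22d3 and Klf9 with means of 41.2, 38.1 and 36.8. The range of each overlapped that of the next, so adjacent places were not resolved, while every control value of Hsd11b1 lay above every one of Tsc22d3 and Klf9. Klf15 (23.7), Ddit4 (17.8), Fkbp5 (15.7), Sgk1 (15.0) and Zbtb16 (14.3) followed, with ranges that overlapped from each to the next. Per1 (7.30) had the lowest mean, and its range did not reach that of Zbtb16, although it overlapped that of Fkbp5. In cachectic mice the order was different. Ddit4 stood first with 139.9 ± 45.5 (SD, n = 3) FPKM and Sgk1 next with 84.1 ± 24.5 (SD, n = 3), while Nr3c1 stood in the eighth place with a mean of 27.4. In cachectic mice the range of every gene overlapped that of the next in order, so neighboring places were not resolved.

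**Figure D3:**
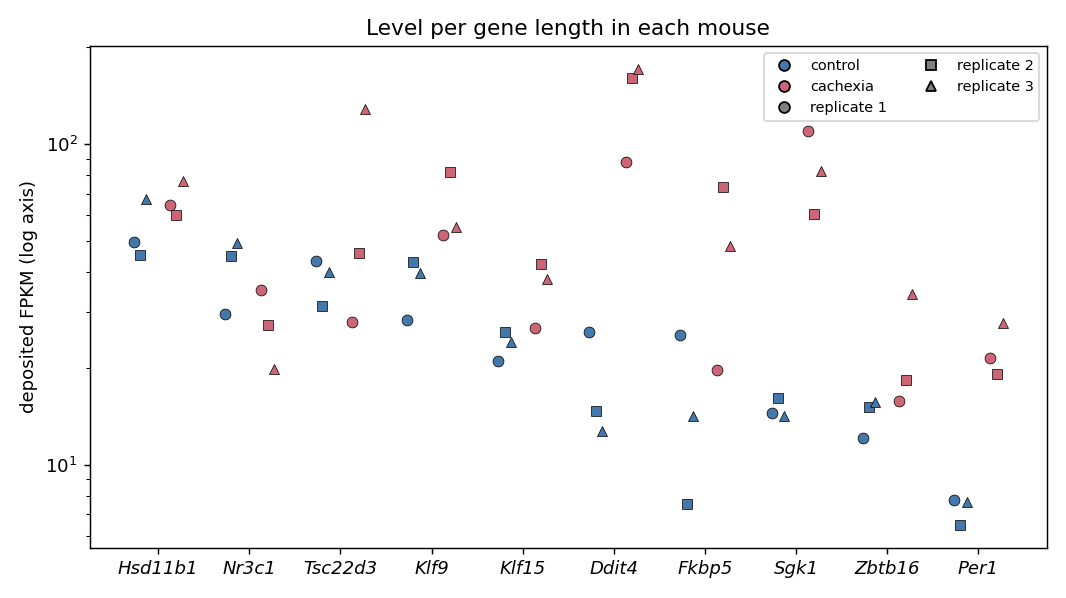
Deposited FPKM values of the 10 genes in each mouse on a log axis, ordered by the control mean. Control mice are blue, cachectic mice red, and circles, squares and triangles are replicates 1, 2 and 3. Ddit4 and Sgk1, with control means of 17.8 and 15.0, stand at 139.9 and 84.1 in cachectic mice.

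The cachectic mice differed among themselves. Cachectic mouse 1 was the lowest of the cachectic mice in 6 of 10 members (Fkbp5, Tsc22d3, Zbtb16, Klf9, Klf15 and Ddit4), against 28.8% of all tested genes. Cachectic mouse 3 was the highest in 5 (Hsd11b1, Tsc22d3, Per1, Zbtb16 and Ddit4), against 37.5% of all tested genes. It was also the mouse with the lowest Nr3c1, and cachectic mouse 1 was the one with the highest. Among controls, mouse 1 was the highest in 4 members (Fkbp5, Tsc22d3, Per1 and Ddit4) and the lowest in 4 (Nr3c1, Zbtb16, Klf9 and Klf15), beside 39.0% and 40.5% of all tested genes. With 3 mice in a group these orders are descriptions without a test.

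Other genes known to be induced by glucocorticoids were described from a separate list of 30, of which 27 had enough counts. The list was chosen with earlier results of these data known, so it is a description and no independent check on the members. The median log2 fold change of the 27 was 0.85. Of the 27, 12 were called higher and 4 lower, beside 9% and 8.63% of all tested genes. Without control 3 these counts were 5 and 1, without control 2 they were 6 and 1, and without cachectic mouse 1 or cachectic mouse 2 the lower count was 2. The summed level of the list was 5192 to 5706 CPM in controls and 9637 to 13672 CPM in cachectic mice. Abundant genes weigh most in this sum, so it does not measure how many genes rose. Among them, Pck1 went from a mean of 630 ± 294 to one of 3214 ± 1375 CPM (SD, n = 3 each). Glul went from a mean of 1032 ± 224 to one of 2243 ± 396.5 CPM (SD, n = 3 each). The list is mixed, since many of its genes also answer to fasting, insulin or inflammation.

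Nfkbia, which encodes the inhibitor of NF-kappaB, had the smallest p-value among the genes of that list called higher and rose from a mean of 66.9 ± 2.95 to one of 215 ± 49.9 CPM (SD, n = 3 each). Pdk4, which blocks entry of pyruvate into the mitochondrial cycle, had a log2 fold change of 3.71 ± 0.49 (SE). Cebpd, an early adipogenic factor, stood at 47.3 to 55.7 CPM in controls and at 137, 175 and 366 CPM in cachectic mice 1, 2 and 3, a log2 fold change of 2.13 ± 0.35 (SE). Fbxo32, the ubiquitin ligase gene best known from wasting muscle, rose 2.70-fold. Il1r2, the decoy receptor for interleukin-1, rose from at most 0.287 CPM in controls to 3.09, 7.19 and 12.3 CPM in cachectic mice 1, 2 and 3. Il1r2 is also abundant in neutrophils, and the part of these cells in its rise was not tested.

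The 4 genes of the list that were lower went against its name. Pik3r1, the regulatory subunit gene of PI3-kinase, fell from a mean of 738 ± 99.6 to one of 182 ± 42.2 CPM (SD, n = 3 each). Rasd1, a Ras-like gene first found by its dexamethasone response, went from 203 to 235 CPM in controls to 76.5, 34.1 and 15.7 CPM in cachectic mice 1, 2 and 3. Bcl6, a transcriptional repressor, had a log2 fold change of -2.04 ± 0.44 (SE), and Anxa1, an anti-inflammatory annexin, had one of -1.07 ± 0.30 (SE). Mt1, which is named here after its values were seen, followed the order of Tsc22d3 in cachectic mice, with 171, 451.5 and 2244 CPM in replicates 1, 2 and 3, beside 253 to 356 CPM in controls. Its log2 fold change of 1.69 ± 0.80 (SE) did not pass (adjusted p = 0.178 from edgeR's test).

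**Figure D4:**
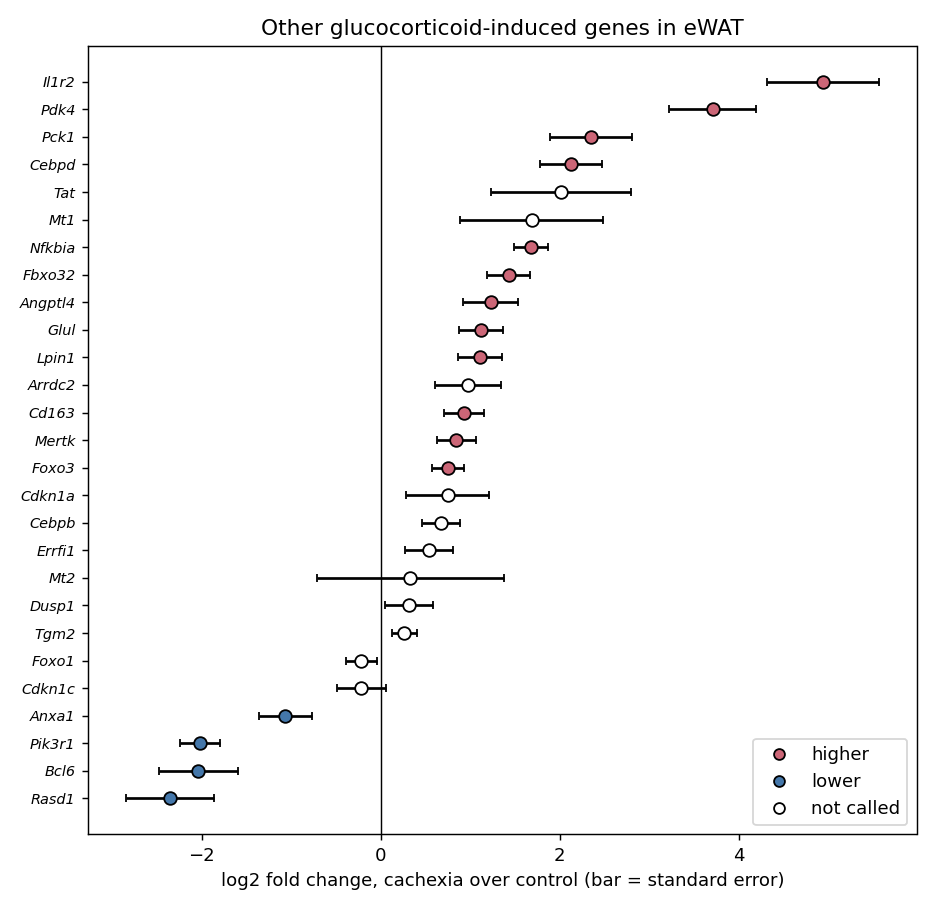
Log2 fold change of cachectic over control mice (points) with standard error (bars) for the 27 tested genes of a list of other glucocorticoid-induced genes. Red points are the 12 called higher, blue points the 4 called lower and open points the rest, from Il1r2 at the top to Rasd1 at the bottom.

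Most partners of the receptor did not pass the test, which also held for most of all tested genes. The list held 21 genes for hormone supply, receptor chaperones and coregulators, all tested, with a median log2 fold change of 0.08. Of these, 1 was called higher and 0 lower, beside 9% and 8.63% of all tested genes. The one called gene was Abcb1b, a drug and steroid efflux pump, which rose from a mean of 34.4 ± 6.04 to one of 68.0 ± 9.85 CPM (SD, n = 3 each). The chaperone genes Hsp90aa1 and Hsp90ab1 had log2 fold changes of -0.38 and 0.33, Hspa8 of -0.05, Ptges3 of 0.38 and Stip1 of 0.08, none of them past the threshold. The coactivator genes Ncoa1 and Ncoa2 had log2 fold changes of 0.02 and -0.08, and the corepressor gene Ncor1 one of 0.34. Srd5a1, Abcb1a, H6pd, Hsd11b2, Fkbp4, St13, Crebbp, Ep300, Med1 and Smarca4 did not pass either, with values from -1.18 in the steroid reductase gene Srd5a1, which was at 4.42 CPM or less, to 0.63 in H6pd. Nr3c2, the mineralocorticoid receptor, which binds the same hormone, was at 12.2 to 16.7 CPM in controls and 10.03 to 19.5 CPM in cachectic mice, a log2 fold change of 0.14 ± 0.26 (SE).

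Of 10 tested genes that glucocorticoids are known to repress, 1 was called higher (Icam1) and 1 lower (Ccl2), beside 9% and 8.63% of all tested genes. The chemokine gene Ccl2 stood at 17.1, 29.8 and 14.9 CPM in controls 1, 2 and 3 and fell to 6.47, 6.63 and 4.72 CPM in cachectic mice 1, 2 and 3. The adhesion molecule gene Icam1 rose from 13.7 to 22.3 CPM in controls to 35.2 to 55.4 CPM in cachectic mice. The other 8 did not pass, with log2 fold changes from -1.13 ± 0.54 (SE) in Tnf to 2.92 ± 0.94 (SE) in Il6. Il6 was scarce, at 0.0567 to 1.09 CPM in controls and 1.17 to 5.11 CPM in cachectic mice. Its adjusted p was 0.0692 from edgeR's test. The median log2 fold change of the 10 was 0.07.

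Markers of the cells in the fat pad moved too, and their part in the results above was not tested. Over all tested genes 9% were called higher and 8.63% lower. Adipocyte markers summed to 16999 to 22355 CPM in controls and 15677 to 28514 CPM in cachectic mice, with 2 of 8 (Pnpla2 and Cidec) called higher and 1 (Lep) lower. Fabp4 weighed most in this sum, at 6952 to 8940 CPM in controls and 4925 to 14790 CPM in cachectic mice. The groups did not overlap in 2 of the 8 that were higher and in 3 that were lower. Plin1, one of these 3, had a log2 fold change of -1.44 ± 0.43 (SE) and did not pass (adjusted p = 0.057 from edgeR's test). None of these markers was at 0 in all samples. Of 8 neutrophil markers tested, 7 were called higher, and their summed level was 32.1 to 49.1 CPM in controls and 246 to 728 CPM in cachectic mice, highest in cachectic mouse 3. Ly6g, the defining marker of these cells, was at 0 in all controls and at 0.614 CPM or less in cachectic mice. Erythroid genes were called higher in 6 of 6, with sums of 252 to 451 CPM and 1333 to 2855 CPM. Endothelial markers were called higher in 3 of 7 (1345 to 1395 against 1822 to 2877 CPM). Macrophage markers were called lower in 1 of 8, progenitor markers higher in 1 and lower in 2 of 7, smooth muscle and pericyte markers lower in 1 of 6, T and NK cell markers lower in 1 of 6, and mesothelial and B cell markers in 0 of 5 and 0 of 4. Markers of the epididymis stayed at 3.71 CPM or less in sum in every mouse.

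The genes most like Nr3c1, Fkbp5 and Tsc22d3 over the 6 samples were sought among protein-coding genes by Pearson's r of log2 CPM. For Nr3c1 they were Mob1a, Extl3 and Fh1, each with r of 0.987. For Fkbp5 they were Slc7a7 (0.992), Nhp2 (0.992) and Socs2 (0.990), and Socs2, a feedback inhibitor of growth hormone signaling, stood at 31.8, 19.4 and 22.8 CPM in controls 1, 2 and 3 and at 28.9, 46.6 and 43.4 CPM in cachectic mice 1, 2 and 3. For Tsc22d3 they were Serpina3i (0.989), Pum3 (0.989) and Pigb (0.985), and Serpina3i had 29.6 CPM in cachectic mouse 3 beside 5.47 CPM or less in the other 5 mice. These are the highest values among all tested protein-coding genes over 6 points that fall into 2 groups, and none of these genes was called.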

How the data were processed

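RNA-seq of eWAT from 3 cachectic and 3 control mice was analyzed, grouped by the sample titles. After quality trimming, Hisat2 alignment and featureCounts (1.5.0-p3 per the submitters' processing notes), the authors deposited raw counts per gene. They also deposited FPKM values, made from the count and gene length. The notes name mm9, but 98.3% of the identifiers shared with GENCODE M21 (GRCm38) have the same start and end there, so coordinates are read as GRCm38. Strand use in counting is not given in the sources used here. The authors' table of differential genes (fold changes, p-values and 6 columns of per-sample values) was not used.

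The main test, run with edgeR 4.0.16 (R 4.3.3), used filterByExpr, TMM, a quasi-likelihood fit without covariates, Benjamini-Hochberg adjustment over 16003 genes, threshold 0.05. The standard error is the log2 fold change divided by the square root of F. The biological coefficient of variation was 0.264. Depth sets the precision of a single gene, and the lowest count of any member in a sample was 399, for Ddit4 in control 3. Permutation tests used log2 CPM with a pseudocount of 0.5. Scripts were tested on simulated counts. Replicates of a group differed beyond sampling noise (chi-square per degree of freedom at least 12.7), so each was counted once. Nothing pairs mice across groups, and p-values set the group difference against the spread between the samples of different mice.

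Members and lists were chosen with earlier results of these data known. Named were the 10 members, up to 5 called genes per list and direction by p-value, the receptor partners, and the 3 genes most like each of 3 members. Some other listed genes were named after their values were seen. The values of 2 listed genes are not reported here. Other settings are 17 in number: other scaling, filters, tools (DESeq2 1.42.0, limma 3.58.1 with voom, or on log2 FPKM after adding 1 or 0.1), only protein-coding genes, a replicate block and each mouse left out.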

Additional observations from a re-analysis of the deposited data

How the results depend on the processing

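Each of the 17 other settings kept Sgk1, Ddit4 and Per1 called, and 0 members were called lower in any of them. The number of members called higher was 5 without a filter on low counts, where 1295 of 29764 genes were called higher. It was also 5 with DESeq2, where 1955 of 16003 genes were. With a mouse left out it ranged from 3 to 5. The total of called genes ranged from 828 to 2339 with a mouse left out, and the list of other induced genes from 5 to 10 called higher and from 1 to 4 called lower. Klf9 was called in 7 settings, Fkbp5 and Klf15 in 2 each, and the causes were not tested. With a mouse left out the log2 fold change of Tsc22d3 ranged from -0.032, a reversal without cachectic mouse 3, to 1.21 without cachectic mouse 1. All other members kept their direction in every setting. Same-numbered mice did not deviate together (r between -0.0113 and 0.00849), and not every mouse correlated best with its own number. With the replicate block 4 members were called, the fourth being Klf9 (adjusted p = 0.0375 from edgeR), among 1881 genes in all. The lowest count of a member in any sample was 399, and the biological coefficient of variation over all genes was 0.264.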
